A study of Mus musculus with 6 samples.

Results

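The genes described here carry bile acids through the absorptive cell of the small intestine or answer to them through the farnesoid X receptor (FXR). They are the transporter and carrier genes Slc10a2, Fabp6, Slc51a and Slc51b, the receptor gene Nr1h4, and the receptor targets Nr0b2 and Fgf15. The members were the rows of the deposited table that bear these symbols, and all 7 were found among its 21397 genes. Of these, 5 had a mean of at least 1 FPKM (fragments divided by gene length and by library size) and were tested with the 10551 genes at or above that level. The other 2, Nr0b2 and Fgf15, lay under it and are described by their fragments.

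RNA was sequenced from small intestinal organoids, which are epithelial structures grown in culture from intestinal crypts, to ask how MMK-1 changes gene expression in them. MMK-1 is a peptide agonist of the receptor FPR2. Both groups shared the genotype Fpr2 f/f, floxed alleles without Cre, with C57BL/6J as the background strain, and the study's methods give an age of 8 to 12 weeks for all experiments. The Control group received vehicle, 0.1% DMSO, and the MMK-1 group received the peptide, each for 5 days. The protocol in the labels and the study's methods give the dose as 1 μmol/L, whereas the treatment label gives 1 mM. There were 3 libraries in each group, and the study states that each sample held organoids of 3 mice. It is not stated whether the same animals gave both groups, so the p-values measure the spread between these pooled samples. The labels name the small intestine, and a figure legend of the study names the ileum. What bile acids the culture medium held is not given in the sources used here.

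Bile acids are made in the liver and recovered in the ileum. There the apical sodium-dependent transporter encoded by Slc10a2 takes them up, the cytosolic carrier encoded by Fabp6 binds them, and the heterodimer encoded by Slc51a and Slc51b (OSTα and OSTβ) releases them across the basolateral membrane. Inside the cell they bind FXR, which pairs with the retinoid X receptor and is known to induce Fabp6, Slc51a, Slc51b, the repressor gene Nr0b2 (SHP) and the hormone gene Fgf15, whose product acts on the liver to lower bile acid synthesis.

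The library totals lay between 35512739 and 37537463 fragments. MMK-1 replicate 3 stood apart from the rest of its group. Its recovered fragments gave a chi-square, divided by degrees of freedom, of 36.6 against replicate 1 and 31.3 against replicate 2, while MMK-1 replicates 1 and 2 gave 3.57 and the Control pairs gave 2.83 to 4.97. The samples carried epithelial markers. The enterocyte gene Vil1 had a Control mean of 566 FPKM, and the leukocyte gene Ptprc had 0.0076 FPKM. Markers of gut segments were mixed. Gata4, a factor of the proximal small intestine, had 42.9 FPKM in Control organoids, and the distal gene Osr2 had 39.8 FPKM. Fabp6, an abundant transcript of the ileum, had only 4.96 FPKM, beside 2219 FPKM for Fabp1, the carrier gene expressed along the small intestine.

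The promoter of Fabp6 is shown because it held the closest match among the members to the motif searched. The sequence is from RefSeq on GRCm38.p6, whose promoter table matched 6 of the 7 members, all except Fgf15. It runs 5′ to 3′ on the minus strand over chr11:43601563-43601812 and ends before the outermost annotated start. The motif was the inverted repeat AGGTCANTGACCT, the arrangement to which FXR with its partner is known to bind, which reads the same on both strands. Capitals mark the best matches.
Fabp6: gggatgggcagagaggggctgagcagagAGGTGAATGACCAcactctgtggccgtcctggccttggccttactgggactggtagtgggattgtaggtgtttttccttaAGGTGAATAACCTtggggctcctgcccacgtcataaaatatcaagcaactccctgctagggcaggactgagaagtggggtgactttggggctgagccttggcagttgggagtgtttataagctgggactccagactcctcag

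Both Fabp6 sites had 2 mismatches among the 12 fixed letters. With positions counted from 1 at the motif's 5′ end, the site beginning 222 bases before the RefSeq start differed by C5G and T13A, and the site beginning 142 bases before it by C5G and G9A. A match with as few mismatches was present in 1.14% of the 32851 promoters in the table, each 250 bases before and 50 after the start. Slc51a and Slc51b had no match with fewer than 3 mismatches in this window, a level that 11.4% of promoters reached, and the best matches of Slc10a2, Nr1h4 and Nr0b2 had 4 mismatches, as few as in 56.4% of promoters. These are matches of letters in a window and describe no binding. The best Nr1h4 match, at chr10:89506867-89506879, lay inside the GENCODE span of that gene given below. The Nr1h4 window was therefore not at the 5′ end of that span.

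All 5 tested members were lower in MMK-1 organoids than in Control organoids at an adjusted p of at most 0.05 (limma on log2(FPKM + 1), Benjamini-Hochberg over the 10551 genes), where 24.7% of all tested genes were called lower. Fabp6, Slc51a and Slc51b also passed the rule of the study's methods, a fold of at least 2 with p of at most 0.05, which 3.65% of tested genes passed in the lower direction. Without MMK-1 replicate 3 these counts were again 5 and 3. The groups did not overlap for any of the 5 tested members, as for 76.8% of tested genes. The median change of the tested members was -1.44 on the log2 scale, against 0.13 over all genes tested. In bulk RNA, fewer cells of a type and less RNA per cell cannot be told apart. The markers of mature enterocytes moved in the same direction, with 8 of 10 lower, 1 higher and a median log2 change of -1.08. Their part in the members' values was not tested.

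Slc10a2 (NCBI gene 20494, chr8:5083219-5105351 in GENCODE vM21 on GRCm38, minus strand) encodes the transporter that brings bile acids into the cell. Its level was 5.97, 6.51 and 5.62 FPKM in Control replicates 1 to 3 and 5.07, 4.92 and 3.62 FPKM in MMK-1 replicates 1 to 3. Every MMK-1 value lay below every Control value, and MMK-1 replicate 3 was the lowest. The mean was 6.03 ± 0.448 FPKM (SD, n = 3) in Control and 4.54 ± 0.795 FPKM (SD, n = 3) in MMK-1, or 75.2% of Control. The log2 change of FPKM + 1 was -0.35 with an SE of 0.103 (limma, adjusted p = 0.0126). The call was lost when every gene above 0 was tested (limma, adjusted p = 0.0584), and without MMK-1 replicate 3 the log2 change was -0.23 (limma, adjusted p = 0.0083). Slc10a2 had the smallest change of the 5 tested members, with 14.3% of tested genes showing a lower value.

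Fabp6 (gene 16204, chr11:43596049-43601540, minus strand) encodes the cytosolic bile acid carrier, and its promoter is printed above. It stood at 4.76, 4.96 and 5.14 FPKM in the Control libraries and at 0.828, 0.546 and 1.37 FPKM in the MMK-1 libraries. The recovered fragments behind these values were 91, 95 and 98 in Control and 15, 10 and 26 in MMK-1. The groups were far apart, and MMK-1 replicate 3 was the highest of its group. Fabp6 fell 5.41-fold, from 4.96 ± 0.188 FPKM to 0.915 ± 0.42 FPKM (SD, n = 3 per group). On the log2(FPKM + 1) scale, which understates the change of a gene this low, the difference was -1.66 with an SE of 0.134 (limma, adjusted p = 7.2e-06). On recovered fragments, limma-voom gave a log2 change of -2.49 (adjusted p = 2.6e-05). Fabp6 passed the filter through its Control libraries, and with every gene above 0 tested its adjusted p was 0.00050 (limma). Of all tested genes, 1.07% had a lower log2 change than Fabp6.

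The gene Slc51a (gene 106407, chr16:32474504-32487879, minus strand) encodes the α subunit of the basolateral exporter. Its values were 18.5, 19.2 and 19.8 FPKM in Control and 5.34, 5.41 and 6.57 FPKM in MMK-1. The highest MMK-1 value was well under the lowest Control value. Slc51a fell 3.32-fold, from 19.1 ± 0.634 to 5.78 ± 0.692 FPKM (SD, n = 3 per group), a log2 change of -1.58 with an SE of 0.0717 (limma, adjusted p = 2.3e-07). Slc51b (gene 330962, chr9:65412714-65422955, minus strand) encodes the β subunit, which the α subunit needs to reach the membrane. It was measured at 48.0, 47.1 and 50.3 FPKM in Control and at 16.3, 17.6 and 18.1 FPKM in MMK-1. These values were also fully separated. Slc51b fell 2.80-fold, from 48.5 ± 1.65 to 17.3 ± 0.938 FPKM (SD, n = 3 per group), with a log2 change of -1.44 and an SE of 0.0506 (limma, adjusted p = 6.0e-08).

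Nr1h4 (gene 20186, chr10:89454234-89533585, minus strand), which encodes FXR itself, was lower by a smaller factor than the carrier and exporter genes. It read 26.8, 27.8 and 26.8 FPKM in Control and 16.6, 15.7 and 16.9 FPKM in MMK-1. The libraries within each group were close together, with a coefficient of variation of 2.26% in Control and 4.04% in MMK-1. Nr1h4 fell 1.66-fold, from 27.1 ± 0.613 to 16.4 ± 0.661 FPKM (SD, n = 3 per group), with a log2 change of -0.70 and an SE of 0.045 (limma, adjusted p = 1.9e-06). Of the tested genes, 6.31% had a lower log2 change. For each of the 5 tested members, the exact two-sided permutation test over the 6 libraries gave p = 0.1, the smallest value that 3 libraries against 3 allow.

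The targets Nr0b2 and Fgf15 were barely detected. Nr0b2 (gene 23957, chr4:133553376-133556536, plus strand) encodes SHP, a repressor that binds no DNA itself. It had 5, 0 and 2 fragments in Control replicates 1 to 3 and 11, 13 and 11 in MMK-1 replicates 1 to 3. All MMK-1 libraries lay above all Control libraries. The sums of 7 and 35 fragments gave a ratio of MMK-1 to Control, scaled by library totals, of 5.17, with an exact 95% interval of 2.26 to 13.8 that covers counting error only. In FPKM the means were 0.0486 ± 0.0524 and 0.252 ± 0.027 (SD, n = 3 per group). With every gene above 0 tested, Nr0b2 rose by 0.26 on the log2(FPKM + 1) scale with an SE of 0.0389 (limma, adjusted p = 0.0031), in a fit in which 28.1% of the 20676 genes were called higher. The exact permutation test gave p = 0.1.

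Fgf15 (gene 14170, chr7:144896531-144900953, plus strand) encodes the hormone released by the ileum. Its fragments numbered 3, 0 and 1 in Control and 6, 3 and 2 in MMK-1. The groups overlapped, and the sums were 4 and 11 fragments. Their ratio was 2.85 with an exact 95% interval of 0.843 to 12.3, and the exact permutation test gave p = 0.2. The log2 change of FPKM + 1 was 0.05 (limma over every gene above 0, adjusted p = 0.201), so a difference was not detectable at this depth.

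**Figure D1:**
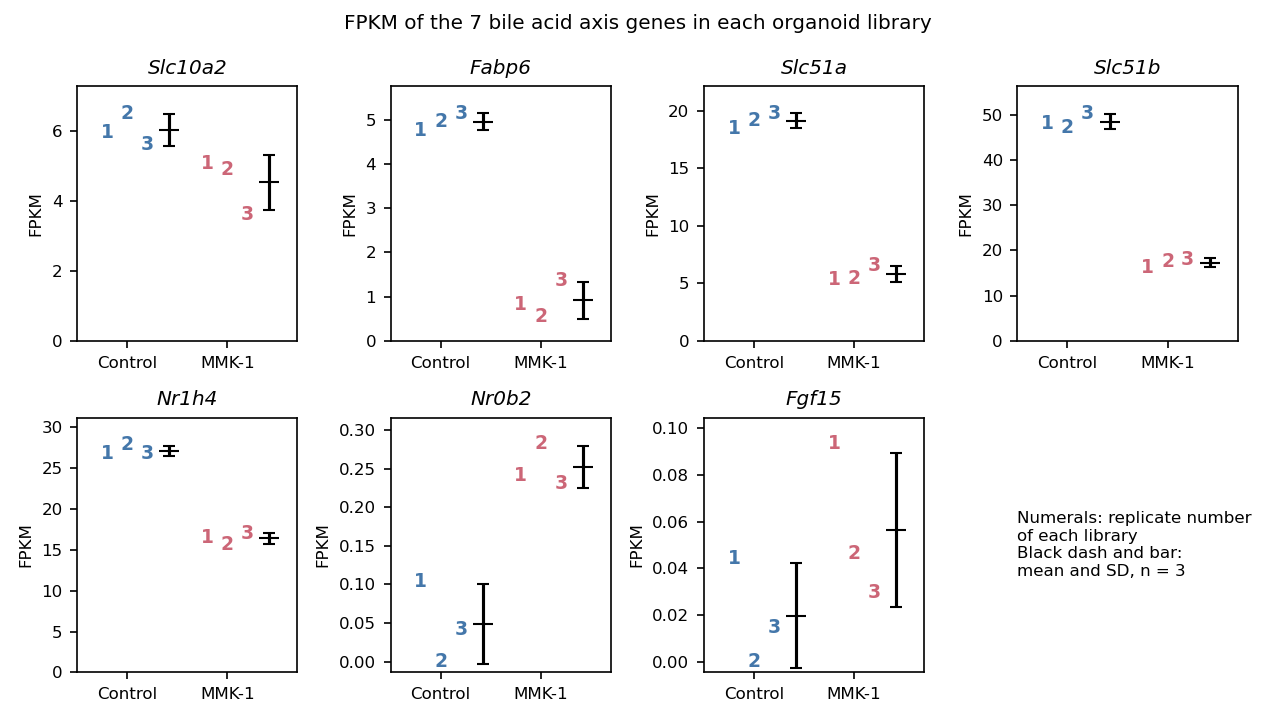
FPKM (vertical axis, linear, with its own range in each panel) of the 7 genes in Control and MMK-1 libraries, where each numeral is the replicate number of a library and the black dash and bar are the mean and SD of 3 libraries. The MMK-1 libraries lie below the Control libraries for Slc10a2, Fabp6, Slc51a, Slc51b and Nr1h4, above them for Nr0b2, and overlap them for Fgf15.

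Ordered by level per gene length, the Control organoids had most FPKM for Slc51b, then Nr1h4, Slc51a, Slc10a2 and Fabp6, with no overlap between neighbours over the 3 libraries, followed by Nr0b2 and Fgf15, whose values overlapped. The order of the means was the same in MMK-1 organoids, but Slc51b and Nr1h4 then overlapped, at 16.3 to 18.1 and 15.7 to 16.9 FPKM. Both exporter genes fell, Slc51a by the larger factor. The ratio of Slc51b to Slc51a FPKM was 2.60, 2.46 and 2.55 in Control and 3.05, 3.25 and 2.75 in MMK-1, which do not overlap. Its mean was 2.53 ± 0.0701 in Control and 3.02 ± 0.249 in MMK-1 (SD, n = 3 per group, exact permutation p = 0.1).

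The uptake and carrier genes separated more. The ratio of Fabp6 to Slc10a2 FPKM was 0.798, 0.762 and 0.914 in Control and 0.163, 0.111 and 0.379 in MMK-1, so that Fabp6 was close to the level of Slc10a2 in the first group and well under it in the second. The means were 0.825 ± 0.0796 and 0.218 ± 0.142 (SD, n = 3 per group, exact permutation p = 0.1). Slc10a2 relative to Slc51a went the other way, from a mean ratio of 0.316 ± 0.0283 in Control to 0.803 ± 0.219 in MMK-1 (SD, n = 3 per group, exact permutation p = 0.1). MMK-1 replicate 3 was the library nearest to Control in all 3 ratios.

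**Figure D2:**
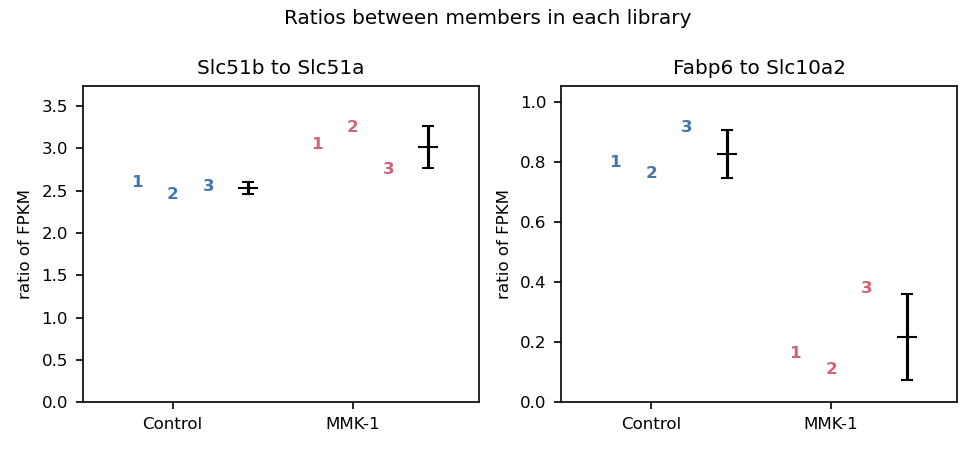
Ratio of FPKM (vertical axis, linear from 0) of Slc51b to Slc51a and of Fabp6 to Slc10a2 in each Control and MMK-1 library, with numerals for replicate numbers and black bars for the mean and SD of 3 libraries. The first ratio averages 2.53 in Control and 3.02 in MMK-1, and the second 0.825 and 0.218, without overlap between groups.

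The 5 tested genes whose pattern over the 6 libraries was nearest to that of Fabp6, by Euclidean distance of log2(FPKM + 1) from each gene's Control mean, were Aspdh, Slc51a, Slc6a7, Slc7a9 and Clu. Among the tested genes Slc51a was the second nearest on this scale, at a distance of 0.307, and Slc51b ranked 82, Nr1h4 634 and Slc10a2 1686. The pseudocount of 1 shrinks the change of a gene as low as Fabp6, and with a pseudocount of 0.1 the log2 changes of Fabp6 and Slc51a lay further apart, at -2.40 and -1.72. Aspdh fell from 6.26 to 1.42 FPKM, with a log2 change of -1.60. Slc6a7, a proline transporter gene, had a log2 change of -1.67, and Slc7a9, which encodes a transporter of cystine and basic amino acids, had -1.62. Clu, which encodes the secreted chaperone clusterin, had -1.71, and with 3.21 FPKM in Control and 0.281 FPKM in MMK-1 it passed the filter only through its Control libraries.

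**Figure D3:**
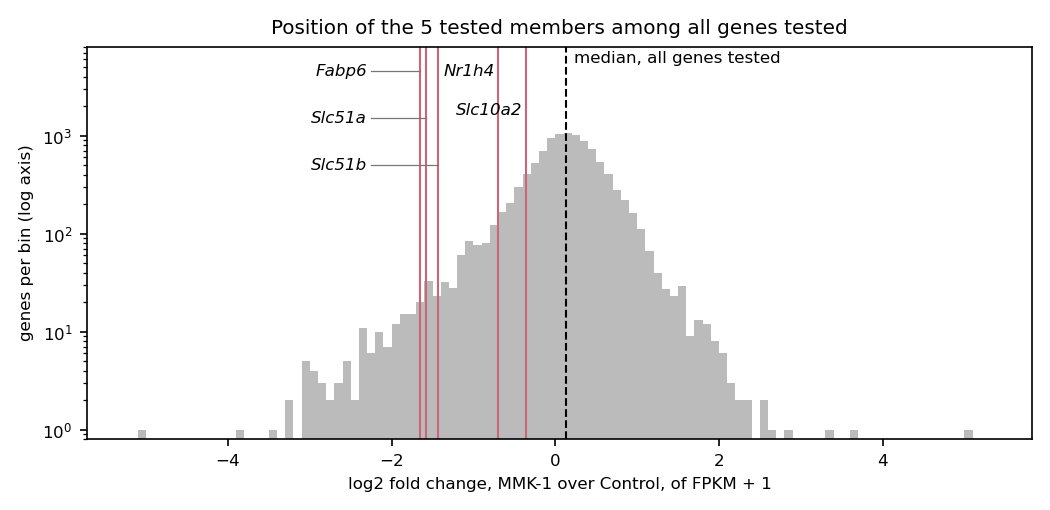
Histogram of log2 fold changes of FPKM + 1, MMK-1 over Control (horizontal axis), of the 10551 tested genes, with the number of genes per bin on a log axis, red lines at the 5 tested members and a dashed line at the median of all genes. Fabp6, Slc51a and Slc51b lie between -1.66 and -1.44, Nr1h4 at -0.70 and Slc10a2 at -0.35, all left of the median of 0.13.

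Of the other bile acid transporters, 7 were tested, of which 5 were lower and 2 higher at an adjusted p of at most 0.05. Of all tested genes, 24.7% were called lower and 48.5% higher. The median log2 change of the 7 transporters was -0.78. Abcc2, an apical exporter of conjugates, fell from 199.8 ± 1.80 to 85.8 ± 4.20 FPKM (SD, n = 3 per group), a log2 change of -1.21 (limma, adjusted p = 6.8e-08). Abcc3, which exports across the basolateral membrane, had a log2 change of -0.89, and Abcb1a, a drug exporter gene with a near copy in Abcb1b, had -0.86. Abcc4, a basolateral exporter, was the higher one that held after upper-quartile scaling, with a log2 change of 0.27 and a Control mean of 0.857 FPKM, so that it passed the filter through its MMK-1 libraries (limma over every gene above 0, adjusted p = 0.0055). Atp8b1, which encodes a lipid flippase, had 0.17, a call lost after that scaling, where its log2 change was 0.01 (limma, adjusted p = 0.717). The canalicular bile salt pump gene Abcb11 was under the filter in both groups, at 0.0501 and 0.0046 FPKM.

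Among FXR's partners and coregulators, Prmt1, Sirt1 and Ncoa1 rose most. Of 13 tested, 11 were higher and 1 was lower, where 48.5% of all tested genes were called higher, and their median log2 change was 0.30. Prmt1, an arginine methyltransferase, rose from 26.9 ± 1.38 to 51.0 ± 3.34 FPKM (SD, n = 3 per group), a log2 change of 0.90 (limma, adjusted p = 1.9e-06). The deacetylase gene Sirt1 had a log2 change of 0.81, and the coactivator gene Ncoa1 had 0.54. Rxra, the partner that forms the heterodimer with FXR, was the member of the list that was lower, with a log2 change of -0.18 (limma, adjusted p = 0.0054). After upper-quartile scaling, which moved the median of all tested genes from 0.13 to 0.00 on the log2 scale, 7 of the 13 were higher and 1 was lower, where 34.8% of all tested genes were called higher and 37% lower. The median log2 change of the 13 was then 0.15, and Rxra had -0.33. That scaling also moved the share of lower genes among all calls from 33.7% to 51.5%, and the 5 tested members then had log2 changes of -1.76 for Fabp6, -1.72 for Slc51a, -1.59 for Slc51b, -0.85 for Nr1h4 and -0.49 for Slc10a2.

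Regulators of the ileal genes did not share a direction. Of 11 tested, 3 were higher, 2 were lower and 6 passed in neither direction. Of all tested genes, 48.5% were called higher and 24.7% lower. After upper-quartile scaling 2 of the regulators were higher and 3 were lower, beside 34.8% and 37% of all tested genes. The lower genes were Malrd1, which is linked to Fgf15 production, with a log2 change of -0.91, and the transcription factor gene Maf, with -0.66. The higher ones were the intestinal identity genes Cdx1 and Cdx2, with 0.31 and 0.30, and Gata4, with 0.20, whose call was lost after upper-quartile scaling. Cdx1 and Cdx2 kept their calls after that scaling, at smaller log2 changes of 0.16 and 0.15.

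In the list of other bile acid sensors, which here counted Nr1i3, the 3 tested genes were all lower. Of all tested genes, 24.7% were called lower. The xenobiotic receptor gene Nr1i3 (CAR) fell from 69.1 ± 2.12 to 23.5 ± 0.821 FPKM (SD, n = 3 per group), a log2 change of -1.51 (limma, adjusted p = 2.0e-08). Nr1i2 (PXR) had a log2 change of -0.61 and Vdr, the vitamin D receptor gene, -0.43. Both membrane receptor genes were under the filter. S1pr2 went the other way, from 0.336 ± 0.038 to 0.836 ± 0.119 FPKM (SD, n = 3 per group; limma over every gene above 0, adjusted p = 0.0011), and Gpbar1 was at 0.0199 and 0.0136 FPKM. Of the receptor pair for FGF15, Fgfr4 rose from 0.265 ± 0.0285 to 2.24 ± 0.313 FPKM (SD, n = 3 per group), a log2 change of 1.35 (limma, adjusted p = 1.1e-06), and its coreceptor gene Klb was under the filter at 0.116 and 0.0927 FPKM. Fgfr4 passed the filter only through its MMK-1 libraries, so it had to differ to be tested, and with every gene above 0 tested its adjusted p was 7.3e-05 (limma).

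Genes of bile acid synthesis and conjugation, most of which also serve other lipid pathways, were lower in 9 of 10 tested, with 1 higher and a median log2 change of -0.69. Cyp27a1, the sterol hydroxylase of the acidic pathway, passed the filter through its Control libraries and had a log2 change of -1.19 (limma over every gene above 0, adjusted p = 6.6e-05), and the peroxisomal genes Hsd17b4 and Scp2 had -0.92 and -0.87. Cyp39a1, an oxysterol hydroxylase gene, was the higher one, with 0.98. The conjugation gene Baat was under the filter, at 1.29 ± 0.103 FPKM in Control and 0.231 ± 0.0465 FPKM in MMK-1 (SD, n = 3 per group). Its adjusted p was 6.6e-05 with every gene above 0 tested (limma). The KEGG pathway Bile secretion, as the table annotates it, held 74 genes outside the members, of which 43 were tested, 25 were lower and 12 were higher, or 31 and 7 after upper-quartile scaling. The share of all tested genes was 24.7% lower and 48.5% higher, or 37% and 34.8% after that scaling, so the list held more lower and fewer higher calls than the table as a whole. Its largest lower changes were in Ugt2b5 (-1.55) and Ugt2b36 (-1.33), glucuronosyltransferase genes of a family whose reads could be split among near copies, and in the bicarbonate transporter gene Slc4a5 (-1.42). The glucose transporter gene Slc2a1 (1.06), the water channel gene Aqp4 (0.85) and the sodium pump subunit gene Atp1b3 (0.76) had the largest higher changes on the log2 scale.

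**Figure D4:**
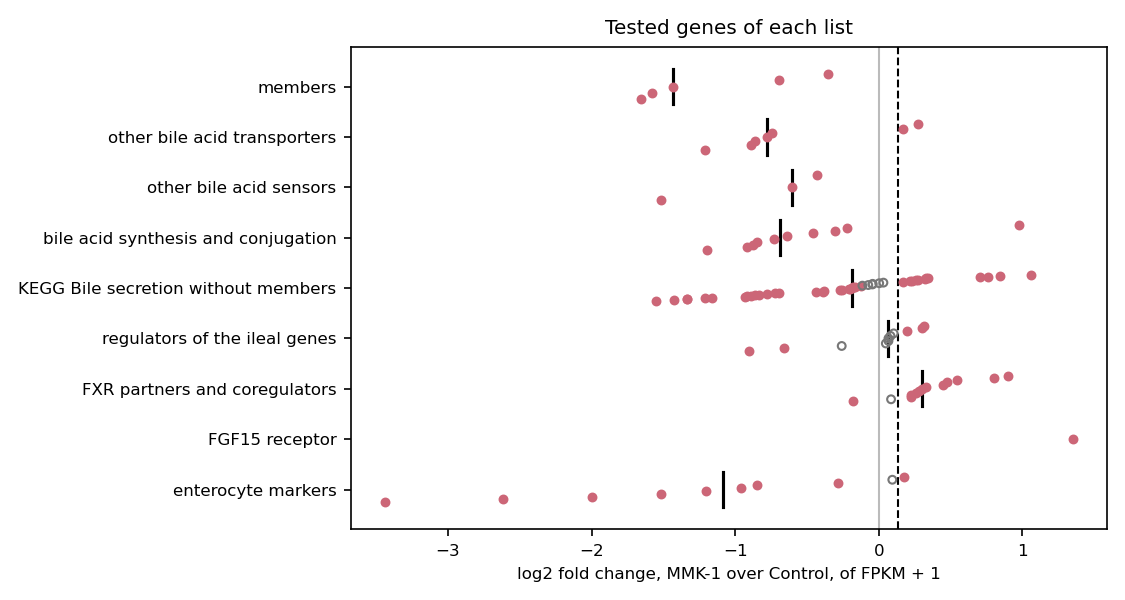
Log2 fold change of FPKM + 1, MMK-1 over Control (horizontal axis), of each tested gene in 9 lists, with filled red points at an adjusted p of at most 0.05 and open points above it, black ticks at list medians and a dashed line at the median of all tested genes. The members have a median of -1.44, the other transporters -0.78, the enterocyte markers -1.08 and the FXR partners and coregulators 0.30.

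Markers of several other cell types are given beside these values. The summed FPKM of the 10 enterocyte markers was 13137 to 13328 in Control libraries and 9708 to 10473 in MMK-1 libraries. The fatty acid carrier gene Fabp2 fell from 1428 to 357 FPKM on average, while Fabp1 had a log2 change of 0.17, a call lost after upper-quartile scaling. The 4 stem cell markers summed to 40.4 to 40.8 FPKM in Control and 289 to 304 FPKM in MMK-1, and the 3 Paneth cell markers to 112 to 114 and 516 to 556 FPKM, with all of them higher. The goblet cell markers were mixed. Muc2 had a log2 change of -0.35, Tff3 had 0.38 and Clca1 had 0.21, a call lost after upper-quartile scaling. Of the 3 enteroendocrine markers, 2 were higher and 1 was not called, and 1 was higher after that scaling. The 4 leukocyte markers summed to 3.02 to 3.75 FPKM in Control and 0.927 to 1.78 FPKM in MMK-1, nearly all from Cd68, while Ptprc and Tyrobp stayed under 0.1 FPKM on average in each group. The distal marker Osr2 was lower, with a log2 change of -0.28. The part of these shifts in the members' values was not tested.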

How the data were processed

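The authors deposited FPKM values for 6 libraries, from 150-bp paired-end reads. The submitters' processing notes name HISAT2, HTSeq, R 3.2.0, DESeq2 and mm10 without roles. From these values, whole fragments and library totals were recovered: of the genes above 0, 99.99% had an implied length that was whole to 0.1, and the recovery was tested on simulated data. The members and lists were chosen with earlier results of these data known. Genes averaging 1 FPKM or more were tested with limma 3.58.1 in R 4.3.3 (limma-trend, pseudocount 1) on log2(FPKM + 1), without a replicate block. Nr0b2 and Fgf15 were tested over all 20676 genes above 0. Calls were made at p of at most 0.05 after Benjamini-Hochberg adjustment, or a fold of at least 2 with p of at most 0.05, the rule in the study's methods. Permutation tests were exact and two-sided, and count intervals were exact at 95%. Limma-voom on recovered fragments called 5116 genes higher and 2589 lower. Named genes were the members, up to 3 called genes with the largest changes in each direction of each list, and the 5 nearest to Fabp6. Coordinates are from GENCODE vM21 on GRCm38, from which the authors' annotation may differ. Alternatives were another scaling, pseudocount, filter, fold threshold and test, a replicate block, and leaving out each library. The other steps ran in Python 3.11.15 (scipy 1.17.1, numpy 2.4.6, pandas 2.3.3, matplotlib 3.10.9).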

Additional observations from a re-analysis of the deposited data

How the results depend on the processing

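Fabp6, Slc51a, Slc51b and Nr1h4 kept their direction and call in all 12 alternatives, Nr0b2 did so in 11 and Fgf15 remained uncalled in 10. Slc10a2 kept its call in 11 of 12 and lost it only when every gene above 0 was tested (log2 change -0.35, limma, adjusted p = 0.0584). With each library left out in turn, the log2 change of Slc10a2 ranged from -0.43 to -0.23. The count of genes past the fold rule was 358 higher and 385 lower. The higher count was 676 with a pseudocount of 0.1, 225 after upper-quartile scaling, 727 with limma-voom on recovered fragments and 1502 at a fold threshold of 1.5, and the lower count was 855 at that threshold. Genes of the pathway lists called higher numbered 29, and 18 after upper-quartile scaling. The cause was not tested. Replicate numbers are shared between the groups, but the correlations of same-numbered deviations were 0.0253, -0.04 and 0.0279, and 2 of 6 libraries correlated best with their own number. With a replicate block, 5024 genes were higher and 2543 lower, against 5118 and 2606 without it, and the block changed no member's call. Nr0b2 rested on 7 and 35 fragments and Fgf15 on 4 and 11, which limits their precision, and the log2 change of Nr0b2 was 0.26 with a pseudocount of 1, 1.30 with 0.1 and 2.72 with limma-voom on recovered fragments.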
